A study of Homo sapiens with 12 samples.

Results

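Homologous recombination, the Fanconi pathway and the DNA damage checkpoint were described through 32 genes in the human glioma cell line U87, which is an established line, after BCL3 knockdown and temozolomide treatment. The members were all array probes whose gene symbol is one of the 32 names and whose detection p-value was under 0.01 on at least 3 of 12 arrays. Of 48 such probes 33 passed, and they represent 24 of the 32 genes, among 10686 genes measured in all. BRCA2, RBBP8, FANCA and FANCD2 have no probe named for them in the annotation used, and RAD52, RAD50, FANCF and FANCM lay below the detection filter. FANCF came closest to passing, with detection on 2 arrays. The cells carried a control siRNA or an siRNA against BCL3, an I-kappa-B protein that works in the nucleus on NF-kB dimers. Temozolomide (TMZ), the DNA-methylating drug of glioblastoma therapy, was then given at 100 µM over 24 h, with DMSO as the solvent control. The 4 groups, called siCtrl DMSO, siCtrl TMZ, siBCL3 DMSO and siBCL3 TMZ, had 3 arrays each. Nothing in the labels says whether the 3 arrays of a group came from separate cultures, so the p-values measure the spread between these arrays, which may be technical.

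Homologous recombination repairs a broken chromosome, or a collapsed replication fork, by copying the intact sister chromatid. The MRE11-RAD50-NBN complex and EXO1 cut the ends back to leave 3′ tails, BRCA1 with BARD1 and PALB2 brings BRCA2 to them, and strand exchange with the matching sequence follows. The Fanconi core complex adds ubiquitin to FANCI and FANCD2 at crosslinked DNA, and the kinases ATM and ATR, through CHEK2 and CHEK1, hold the cell cycle while repair goes on. Many of these genes are transcribed mainly in S phase and G2. TMZ leaves methylated guanines whose mispairing leads, by way of mismatch repair, to the breaks that these pathways handle.

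BCL3 itself was measured on every array as the check of the knockdown. Its normalized log2 intensity was 7.47, 7.39 and 7.25 in siCtrl DMSO, 7.26, 7.28 and 7.36 in siCtrl TMZ, 6.41, 6.28 and 6.46 in siBCL3 DMSO, and 6.57, 6.52 and 6.54 in siBCL3 TMZ. All siBCL3 arrays lay below all control arrays, and the log2 change was -0.98 ± 0.07 (limma standard error) under DMSO and -0.76 ± 0.07 under TMZ. Each array detected 16381 to 17839 probes, and the group means of raw intensity ran from 248 ± 15.8 (SD, n = 3) in siBCL3 DMSO to 292 ± 25.8 in siCtrl DMSO. Of 7 glioma and mesenchymal markers VIM, CD44, TNC, NES and CHI3L1 were detected, while GFAP, the astrocyte marker, lay below the filter. Of 5 leukocyte markers CD14 and CD68 were detected and the defining PTPRC and CD3D were not, EPCAM was detected among 4 epithelial markers, 0 of 3 endothelial markers were, and SNAP25 was among 5 neural ones.

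The comparison of the siRNAs asks how BCL3 knockdown changes these genes with and without the drug. Under DMSO 14 of the 24 measured genes fell and 0 rose at an adjusted p under 0.05, among all genes tested of which 20.1% fell and 20.7% rose. Under TMZ 11 fell and 4 rose, where 20.2% of all genes fell and 18.6% rose. The count of rises under TMZ went to 0 without siCtrl TMZ replicate 3 or siBCL3 TMZ replicate 1 and to 2 without siCtrl TMZ replicate 2, siBCL3 TMZ replicate 2 or siBCL3 TMZ replicate 3, and scaling on the median of all probes gave 6 falls and 0 rises there. Under DMSO 9 genes fell without siCtrl DMSO replicate 2. The falls were modest, from 1.14-fold for BARD1 under TMZ to 1.45-fold for FANCL under DMSO, and they lay in most roles: the BRCA1 group, RAD51C and other strand exchange factors, BLM, FANCG and FANCL of the Fanconi core, and CHEK1. The genes that rose under TMZ were ATM, FANCI, XRCC2 and, by the probe used for it, FANCB. The median log2 fold change was -0.229 under DMSO, against 0.013 over all genes, and -0.157 under TMZ, against -0.001. FANCC passed the detection filter only through control arrays, so the counts were also taken over the 21 genes detected on all 12 arrays. Of these 13 fell under DMSO, and 10 fell and 4 rose under TMZ. In a refit over all 9204 genes detected on all 12 arrays, 2064 fell and 2255 rose under DMSO. Under TMZ 2075 of the 9204 fell and 2029 rose. Settings other than a left-out array or scaling over all probes ended the DMSO calls of RAD51AP1, MRE11, CHEK2 and FANCC and the TMZ calls of RAD51AP1, FANCB, XRCC2 and FANCC.

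**Figure D1:**
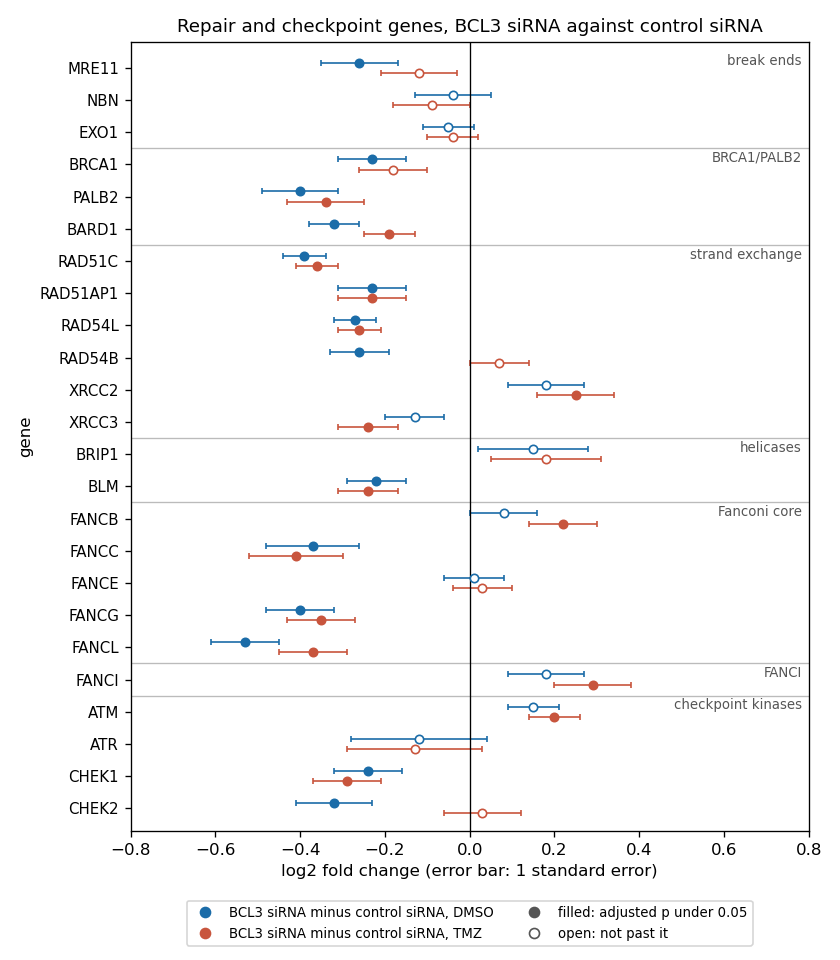
Log2 fold change of BCL3 siRNA over control siRNA for the 24 measured genes, grouped by role, under DMSO (blue) and TMZ (red), with bars of 1 standard error and filled points past an adjusted p of 0.05. Filled points lie mostly on the negative side in both treatments. XRCC2, FANCB, FANCI, ATM, BRIP1 and FANCE lie on the positive side in both. BRCA1, RAD54B, MRE11 and CHEK2 are filled under DMSO only.

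The genes that fell under DMSO and those that fell under TMZ shared 10 names, which is 71.4% of the first list and 90.9% of the second. Over all genes the shared falls were 76.8% of those under DMSO and 76.6% of those under TMZ. The 10 genes were RAD51C, RAD51AP1, RAD54L, PALB2, BARD1, BLM, FANCC, FANCG, FANCL and CHEK1, and without FANCC, which was not detected on any siBCL3 array, the shares were 69.2% and 90%. The sign was the same in both treatments for 22 of 24 genes (91.7%), against 82.2% of all genes. With both treatments averaged in the same fit, 13 fell (12 of the 21 genes detected on all arrays) and 4 rose, where 26.7% of all genes fell and 27.2% rose. Averaged in the refit over genes detected on all arrays, 13 of 21 fell and 4 rose, where 2638 of 9204 fell and 2868 rose. In that average all 6 siBCL3 arrays lay below all 6 control arrays for 8 genes (RAD51C, RAD54L, PALB2, BARD1, BLM, FANCG, FANCL and CHEK1), a pattern that 14.9% of all genes had.

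Markers of S phase and mitosis moved in the same direction. Of 29 measured markers 18 fell and 1 rose under DMSO, with a median log2 fold change of -0.273. Under TMZ 19 fell and 1 rose, with a median of -0.278. Of all genes 20.1% fell and 20.7% rose under DMSO, and 20.2% fell and 18.6% rose under TMZ. Their mean log2 level per array was 9.04 to 9.06 in siCtrl DMSO, 9.11 to 9.14 in siCtrl TMZ, 8.72 to 8.73 in siBCL3 DMSO and 8.71 to 8.73 in siBCL3 TMZ. The mean over the 24 repair and checkpoint genes was 7.11 to 7.14, 7.13 to 7.19, 6.93 to 6.99 and 7.04 to 7.06 in the same order. Neither set of means overlapped between the siRNAs. The part of cell cycle distribution in the falls was not tested, and in RNA pooled over a culture fewer cells in S phase and less RNA per cell cannot be told apart.

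The promoters of the 5 genes with the lowest p for a fall in the average of both treatments, and of XRCC2 as one that rose, are shown because genes of several roles fell together. Each is the 250 bases before an annotated start from RefSeq's GRCh38.p14, 5′ to 3′ on the strand of the gene, with capitals for any of 5 motifs searched on both strands.
RAD51C, chr17:58692323-58692572, plus strand: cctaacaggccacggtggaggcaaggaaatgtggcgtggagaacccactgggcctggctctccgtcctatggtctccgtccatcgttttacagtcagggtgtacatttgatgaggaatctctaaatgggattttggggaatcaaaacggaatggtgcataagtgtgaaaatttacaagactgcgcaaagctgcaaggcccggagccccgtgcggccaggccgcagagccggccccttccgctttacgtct
FANCL, chr2:58241326-58241575, minus strand: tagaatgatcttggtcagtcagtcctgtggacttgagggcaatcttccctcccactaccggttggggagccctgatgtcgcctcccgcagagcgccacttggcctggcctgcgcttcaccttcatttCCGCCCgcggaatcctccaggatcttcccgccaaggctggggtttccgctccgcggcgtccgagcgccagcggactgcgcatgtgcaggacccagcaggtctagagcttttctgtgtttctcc
FANCG, chr9:35079943-35080192, minus strand: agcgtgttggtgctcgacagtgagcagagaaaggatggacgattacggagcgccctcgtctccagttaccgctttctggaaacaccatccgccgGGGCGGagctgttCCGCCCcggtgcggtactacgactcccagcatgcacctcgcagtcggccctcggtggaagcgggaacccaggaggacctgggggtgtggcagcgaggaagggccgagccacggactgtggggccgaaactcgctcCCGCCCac
PALB2, chr16:23641311-23641560, minus strand: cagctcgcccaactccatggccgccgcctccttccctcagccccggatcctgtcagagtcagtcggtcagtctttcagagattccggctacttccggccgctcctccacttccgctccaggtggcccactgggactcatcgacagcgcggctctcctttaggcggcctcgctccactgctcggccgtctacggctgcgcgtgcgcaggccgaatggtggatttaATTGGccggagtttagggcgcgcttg
RAD54L, chr1:46247438-46247687, plus strand: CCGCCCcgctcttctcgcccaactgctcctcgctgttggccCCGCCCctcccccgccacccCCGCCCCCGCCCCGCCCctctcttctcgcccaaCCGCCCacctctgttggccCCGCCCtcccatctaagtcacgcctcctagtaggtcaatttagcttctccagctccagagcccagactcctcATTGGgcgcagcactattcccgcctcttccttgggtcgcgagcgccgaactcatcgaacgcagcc
XRCC2, chr7:152676142-152676391, minus strand: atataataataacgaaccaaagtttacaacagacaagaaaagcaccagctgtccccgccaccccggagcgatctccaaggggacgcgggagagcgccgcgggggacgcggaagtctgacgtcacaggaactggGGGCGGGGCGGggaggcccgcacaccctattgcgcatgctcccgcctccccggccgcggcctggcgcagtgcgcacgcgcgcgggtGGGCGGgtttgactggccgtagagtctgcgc

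The 5 motifs were the E2F sites TTCGCGC and TTGGCGC, the cell cycle homology region TTTGAA, the CCAAT box, and the SP1 site GGGCGG. The stretch before RAD51C held none of them, the one before FANCL held 1 SP1 site, and that before FANCG held 3. PALB2 had 1 CCAAT box, RAD54L had 1 CCAAT box and 7 SP1 sites, some overlapping, and XRCC2, which rose under TMZ, had 3 SP1 sites. RAD51C and RAD54L each have another start in the table, not printed: the stretch before it held none of the motifs for RAD51C, and 2 CCAAT boxes and 2 SP1 sites for RAD54L. Windows reaching 50 bases past the start were in the table for 29 of the 32 genes, 39 windows in all, among 35116 windows of all genes. An E2F site of either spelling was in 12.8% of these 39 windows and in 5.06% of all, in BLM, EXO1, FANCA, FANCC and FANCF. Of these genes FANCA and FANCF were not measured, and EXO1 was not called by its brighter probe. FANCC was not detected on any siBCL3 array. CCAAT was in 46.2% against 34.6%, the SP1 site in 69.2% against 45% and TTTGAA in 7.69% against 15.2%. A gene with several windows, some overlapping, counts more than once in these shares. The windows with CCAAT came from 14 of the 29 genes and those with an SP1 site from 22. A match is a description of letters and does not show binding.

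Among the strand exchange factors RAD51C had the lowest p-value. RAD51C acts in complexes with other paralogs, XRCC3 among them, that promote strand exchange. Its log2 intensity was 9.17, 9.21 and 9.11 in siCtrl DMSO against 8.78, 8.79 and 8.74 in siBCL3 DMSO, and 9.33, 9.35 and 9.36 in siCtrl TMZ against 8.97, 9.02 and 8.97 in siBCL3 TMZ. The 4 groups did not overlap, and the order from low to high was siBCL3 DMSO, siBCL3 TMZ, siCtrl DMSO, siCtrl TMZ. The log2 change with BCL3 siRNA was -0.39 ± 0.05 under DMSO (adjusted p = 7.13e-05) and -0.36 ± 0.05 under TMZ (adjusted p = 0.000142), or 1.31-fold and 1.28-fold lower. The other 2 measured RAD51C probes gave -0.25 and -0.24 under DMSO, both past the threshold, and -0.31 and -0.17 under TMZ, of which -0.17 did not pass (adjusted p = 0.0789 over all probes).

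RAD54L is a motor protein that remodels DNA for strand invasion. It measured 7.26, 7.3 and 7.36 in siCtrl DMSO, 7.37, 7.38 and 7.33 in siCtrl TMZ, 7.02, 7.03 and 7.06 in siBCL3 DMSO, and 7.13, 7.03 and 7.13 in siBCL3 TMZ. Every siBCL3 array lay below every control array, with log2 changes of -0.27 ± 0.05 (adjusted p = 0.00155) and -0.26 ± 0.05 (adjusted p = 0.00235). RAD51AP1, which stimulates strand exchange, had 8.9, 8.96 and 8.8 in siCtrl DMSO and 8.51, 8.68 and 8.78 in siBCL3 DMSO, then 9.06, 9.06 and 8.95 in siCtrl TMZ and 8.73, 8.88 and 8.77 in siBCL3 TMZ. The groups were narrowly apart within each treatment. Its change was -0.23 ± 0.08 in both treatments (adjusted p = 0.0282 and 0.0287), and 4 of the arrays compared, when left out singly, took the p above 0.05 in each case. Under DMSO these were siCtrl DMSO replicates 1 and 2 and siBCL3 DMSO replicates 1 and 2 (adjusted p up to 0.119), and under TMZ siCtrl TMZ replicates 1 and 2 and siBCL3 TMZ replicates 1 and 3 (up to 0.098).

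The paralogs XRCC2 and XRCC3 went opposite ways. XRCC3 had a log2 change of -0.13 under DMSO (adjusted p = 0.171) and fell under TMZ by 0.24 (-0.24 ± 0.07, adjusted p = 0.0188). XRCC2 measured 7.72, 7.68 and 7.47 in siCtrl DMSO, 7.77, 7.84 and 7.58 in siCtrl TMZ, 7.93, 7.71 and 7.77 in siBCL3 DMSO, and 8.06, 7.94 and 7.94 in siBCL3 TMZ. It overlapped under DMSO (0.18 ± 0.09, adjusted p = 0.122) and rose under TMZ, where the groups were apart (0.25 ± 0.09, adjusted p = 0.0388). The TMZ rise of XRCC2 was lost without any of the 6 arrays compared except siCtrl TMZ replicate 2 (adjusted p up to 0.165), and the fall of XRCC3 without siCtrl TMZ replicate 3 or siBCL3 TMZ replicate 1 (up to 0.0798).

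RAD54B, a relative of RAD54L, fell under DMSO and not under TMZ. Its values were 7.24, 7.22 and 7.08 in siCtrl DMSO against 6.85, 6.91 and 6.99 in siBCL3 DMSO, and 7.07, 7.14 and 6.99 in siCtrl TMZ against 7.09, 7.24 and 7.09 in siBCL3 TMZ. The siBCL3 arrays were the low ones under DMSO, while under TMZ the groups overlapped. The change was -0.26 ± 0.07 (adjusted p = 0.0094) and 0.07 ± 0.07 (adjusted p = 0.449), and the difference of the changes did not pass the test over all genes (0.34, adjusted p = 0.588).

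In the BRCA1 group, all 3 measured genes fell under DMSO and 2 of them under TMZ. PALB2, the link between BRCA1 and BRCA2, measured 6.59, 6.32 and 6.62 in siCtrl DMSO, 6.37, 6.55 and 6.49 in siCtrl TMZ, 6.06, 6.13 and 6.14 in siBCL3 DMSO, and 6.26, 6.11 and 6.02 in siBCL3 TMZ. The highest siBCL3 array, at 6.26, lay just below the lowest control array, at 6.32. PALB2 changed by -0.4 ± 0.09 (adjusted p = 0.00273) and -0.34 ± 0.09 (adjusted p = 0.0078).

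BARD1, the partner of BRCA1 in its ubiquitin ligase, measured 8.49, 8.37 and 8.4 in siCtrl DMSO against 8.09, 8.19 and 8.02 in siBCL3 DMSO, and 8.39, 8.38 and 8.31 in siCtrl TMZ against 8.21, 8.18 and 8.11 in siBCL3 TMZ. The siBCL3 arrays were below the control arrays throughout, by -0.32 ± 0.06 under DMSO (adjusted p = 0.00122) and -0.19 ± 0.06 under TMZ (adjusted p = 0.0273). The second of these was lost without siCtrl TMZ replicate 1, siCtrl TMZ replicate 2 or siBCL3 TMZ replicate 3 (adjusted p up to 0.0943). BRCA1 changed by -0.23 ± 0.08 under DMSO (adjusted p = 0.03) and -0.18 ± 0.08 under TMZ (adjusted p = 0.0791), and its other probe by -0.31 and -0.36, both past the threshold. The DMSO call of BRCA1 was lost without siCtrl DMSO replicate 2 or 3 or siBCL3 DMSO replicate 1 or 3 (adjusted p up to 0.0952).

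The Fanconi core complex was split. FANCL, its ubiquitin ligase, measured 9.28, 8.99 and 8.94 in siCtrl DMSO, 8.81, 8.97 and 8.92 in siCtrl TMZ, 8.5, 8.46 and 8.64 in siBCL3 DMSO, and 8.54, 8.52 and 8.52 in siBCL3 TMZ. All siBCL3 arrays were below all control arrays, and siCtrl DMSO replicate 1 was the highest of its group. FANCL fell by 0.53 under DMSO (-0.53 ± 0.08, adjusted p = 0.000292) and by 0.37 under TMZ (-0.37 ± 0.08, adjusted p = 0.00378).

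FANCG, a scaffold of the core complex, measured 8.65, 8.82 and 8.79 in siCtrl DMSO, 9.03, 8.93 and 8.83 in siCtrl TMZ, 8.31, 8.3 and 8.45 in siBCL3 DMSO, and 8.64, 8.48 and 8.62 in siBCL3 TMZ. Here too the 6 siBCL3 arrays were the lowest, and in each siRNA the TMZ arrays lay above the DMSO arrays. The siRNA change was -0.4 ± 0.08 (adjusted p = 0.00113) and -0.35 ± 0.08 (adjusted p = 0.00262).

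FANCC, a bridging subunit of the core, was near background. It was detected on 2 arrays of siCtrl DMSO, all 3 of siCtrl TMZ and 0 of either siBCL3 group, so its difference is a bound. It entered the fit only because control arrays detected it, so the adjusted p-values below are not a fair test of a fall. Under TMZ the siCtrl mean of 4.91 and the siBCL3 mean of 4.5 (adjusted p = 0.0118) correspond to at least 1.1-fold lower, with siBCL3 arrays set no lower than the faintest detected probe. Under DMSO the means were 4.73 and 4.36 (adjusted p = 0.0199), the faintest detected probes were brighter than the control mean, and no fold is given. In that comparison siCtrl DMSO replicate 1 (4.42) lay within the siBCL3 range, and the call was lost without siCtrl DMSO replicate 2 or 3 or siBCL3 DMSO replicate 2 (adjusted p up to 0.0862).

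FANCE, which joins the core to FANCD2, changed by 0.01 ± 0.07 and 0.03 ± 0.07 (95% intervals -0.15 to 0.17 and -0.13 to 0.19). FANCB, of the catalytic part of the core, had 2 probes that differed. They were almost equally bright, with mean log2 levels of 5.96 and 5.94. The first, used for the gene, gave 0.08 under DMSO and 0.22 ± 0.08 under TMZ (adjusted p = 0.0421), with overlapping groups. In the fit over all probes its TMZ change did not pass (adjusted p = 0.0539). The other gave -0.3 under DMSO (adjusted p = 0.022 over all probes) and 0.07 under TMZ. The TMZ call of FANCB was lost without 8 of the 12 arrays: all 3 of siCtrl DMSO, siCtrl TMZ replicates 2 and 3, siBCL3 DMSO replicate 2, and siBCL3 TMZ replicates 1 and 2 (adjusted p up to 0.171).

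FANCI is the partner of FANCD2 and a substrate of the core complex. It measured 7.12, 7.15 and 7.28 in siCtrl DMSO, 7.57, 7.3 and 7.41 in siCtrl TMZ, 7.25, 7.36 and 7.5 in siBCL3 DMSO, and 7.72, 7.6 and 7.82 in siBCL3 TMZ. The siBCL3 TMZ arrays were above all others, and those of siCtrl DMSO and siBCL3 DMSO overlapped. The change with BCL3 siRNA was 0.18 ± 0.09 under DMSO (adjusted p = 0.116) and 0.29 ± 0.09 under TMZ (adjusted p = 0.0213). Without siCtrl TMZ replicate 2 or 3 or siBCL3 TMZ replicate 1 or 3 the second was not past the threshold (adjusted p up to 0.093).

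**Figure D2:**
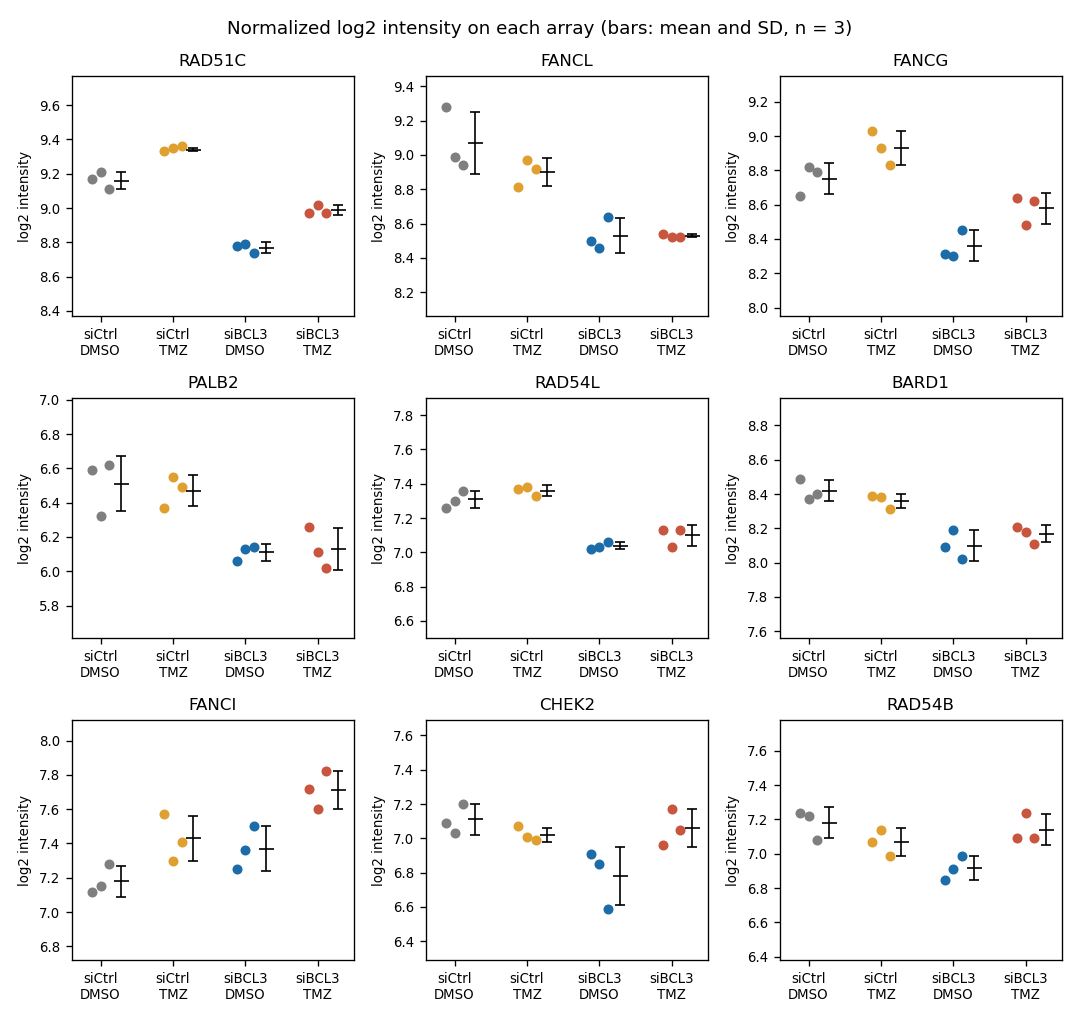
Normalized log2 intensity of 9 of the genes on each of the 12 arrays (points), with the mean and SD of the 3 arrays of a group beside them; each panel spans the same log2 range around its own mean. RAD51C, FANCL, FANCG, PALB2, RAD54L and BARD1 are lower on all siBCL3 arrays, FANCI is highest in siBCL3 TMZ, and CHEK2 and RAD54B are low in siBCL3 DMSO.

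Of the helicases, BLM, which dissolves joined recombination intermediates, fell in both treatments. It measured 6.52, 6.39 and 6.41 in siCtrl DMSO, 6.52, 6.6 and 6.55 in siCtrl TMZ, 6.11, 6.27 and 6.27 in siBCL3 DMSO, and 6.3, 6.26 and 6.39 in siBCL3 TMZ. The siBCL3 and control arrays did not overlap within a treatment, and the changes were -0.22 ± 0.07 (adjusted p = 0.0151) and -0.24 ± 0.07 (adjusted p = 0.0109). The DMSO call was lost without siCtrl DMSO replicate 1 or siBCL3 DMSO replicate 1 (adjusted p up to 0.0652). BRIP1, a helicase bound to BRCA1, was detected on 9 arrays and gave 0.15 ± 0.13 and 0.18 ± 0.13, with 95% intervals of -0.12 to 0.42 and -0.1 to 0.45.

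At the break ends, the nuclease MRE11 changed by -0.26 ± 0.09 under DMSO (adjusted p = 0.0367) with overlapping groups and by -0.12 ± 0.09 under TMZ (adjusted p = 0.349). Its fainter probe gave -0.54 (adjusted p = 0.0292) and -0.41 (adjusted p = 0.0906). The DMSO call of MRE11 was lost without siCtrl DMSO replicate 1 or 2 or siBCL3 DMSO replicate 1 or 3 (adjusted p up to 0.136). NBN, the adaptor that recruits ATM, gave -0.04 ± 0.09 and -0.09 ± 0.09, and neither of its probes passed the threshold. The exonuclease EXO1 gave -0.05 ± 0.06 and -0.04 ± 0.06 by its brighter probe, while its fainter probe fell by 0.31 under DMSO (-0.31 ± 0.08, adjusted p = 0.00838) and gave -0.2 under TMZ (adjusted p = 0.057).

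The checkpoint kinases did not move as a group. CHEK1, the effector of ATR, measured 7.5, 7.57 and 7.46 in siCtrl DMSO, 7.43, 7.55 and 7.49 in siCtrl TMZ, 7.34, 7.15 and 7.31 in siBCL3 DMSO, and 7.28, 7.31 and 7.01 in siBCL3 TMZ. The siBCL3 arrays lay below the control arrays in both treatments, and CHEK1 changed by -0.24 ± 0.08 (adjusted p = 0.0302) and -0.29 ± 0.08 (adjusted p = 0.0132). The first was lost without siCtrl DMSO replicate 1 or 2 or siBCL3 DMSO replicate 2 (adjusted p up to 0.121), and the second without siCtrl TMZ replicate 2 or siBCL3 TMZ replicate 3 (up to 0.0567).

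ATM, the kinase that answers breaks, measured 7.5, 7.39 and 7.47 in siCtrl DMSO, 7.5, 7.5 and 7.48 in siCtrl TMZ, 7.59, 7.57 and 7.64 in siBCL3 DMSO, and 7.76, 7.74 and 7.58 in siBCL3 TMZ. All siBCL3 arrays were above all control arrays. The log2 change was 0.15 ± 0.06 under DMSO (adjusted p = 0.0674) and 0.2 ± 0.06 under TMZ (adjusted p = 0.0191), and its other probe gave 0.16 (adjusted p = 0.127) and 0.44 (adjusted p = 0.000752). For the brighter probe the TMZ call was lost without siCtrl TMZ replicate 3 or siBCL3 TMZ replicate 1 or 2 (adjusted p up to 0.0744). ATR, the kinase that answers stalled forks, was detected on 1 array of each group, and its changes of -0.12 ± 0.16 and -0.13 ± 0.16 have 95% intervals of -0.46 to 0.22 and -0.47 to 0.21.

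CHEK2, the effector of ATM, measured 7.09, 7.03 and 7.2 in siCtrl DMSO against 6.91, 6.85 and 6.59 in siBCL3 DMSO, and 7.07, 7.01 and 6.99 in siCtrl TMZ against 6.96, 7.17 and 7.05 in siBCL3 TMZ. The siBCL3 arrays were low under DMSO and mixed with the control arrays under TMZ. The change was -0.32 ± 0.09 (adjusted p = 0.00914) and 0.03 ± 0.09 (adjusted p = 0.794), and the difference between them of 0.36 did not pass (adjusted p = 0.657). Its other probe gave 0.15 under DMSO (adjusted p = 0.135) and 0.11 under TMZ, and with its probes averaged the DMSO change was -0.09 (adjusted p = 0.318).

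The comparison of TMZ with DMSO asks what the drug changes in each siRNA background, and none of the 24 genes passed its test. With control siRNA 0 of 24 passed the threshold (limma, Benjamini-Hochberg), where 0.861% of all genes did, and 3 (12.5%) had an unadjusted p under 0.05, against 15.3% of all genes. With BCL3 siRNA 0 passed, against 1.06% of all genes, and 6 (25%) had an unadjusted p under 0.05, against 15.1% of all genes. The log2 changes ran from -0.17 to 0.24 with control siRNA and from -0.12 to 0.35 with BCL3 siRNA, and the outermost 95% bounds of any gene were -0.38 and 0.43 in the one and -0.39 and 0.54 in the other. The 3 TMZ arrays lay above the 3 DMSO arrays for 4 genes with control siRNA (RAD51C, EXO1, FANCG and FANCI) and for 7 with BCL3 siRNA (RAD51C, RAD54B, XRCC2, FANCB, FANCG, FANCI and CHEK2). Of all genes 13.0% and 9.69% were apart in that direction. The other CHEK2 probe changed by 0.22 with control siRNA and 0.18 with BCL3 siRNA (adjusted p = 0.221 and 0.294 over all probes).

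**Figure D3:**
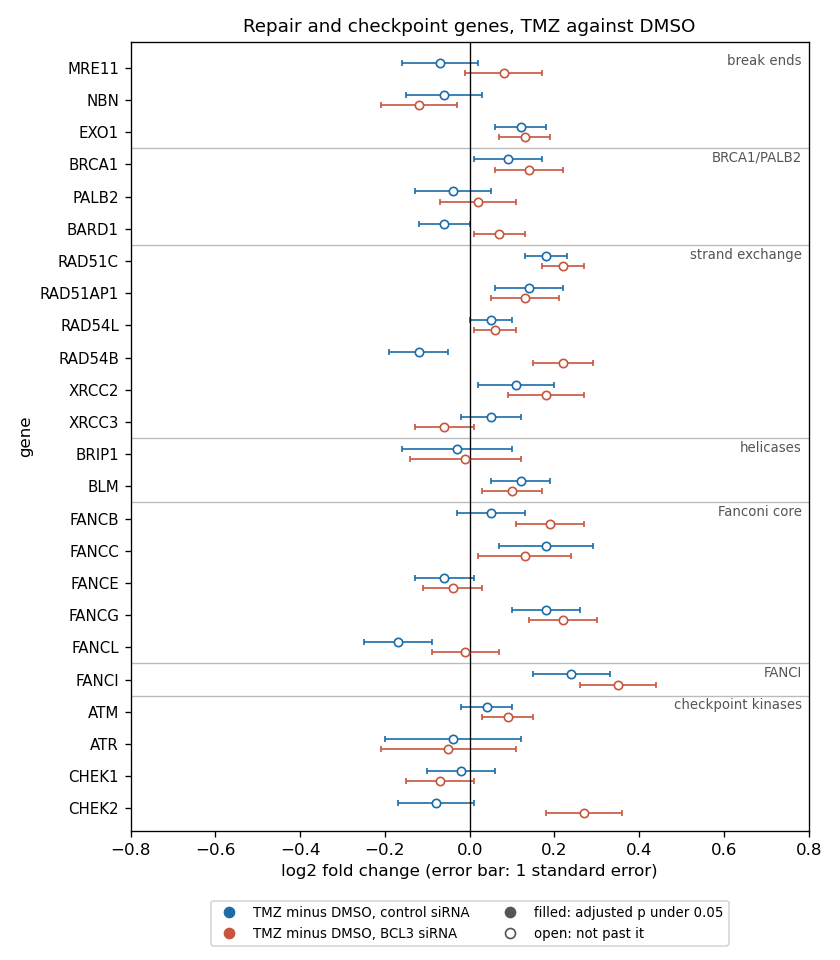
Log2 fold change of TMZ over DMSO for the same 24 genes with control siRNA (blue) and BCL3 siRNA (red), with bars of 1 standard error, on the axis used for the siRNA comparison. All points are open, since no adjusted p was under 0.05, and FANCI with BCL3 siRNA lies farthest from 0, at 0.35.

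With both siRNAs averaged, RAD51C and FANCI rose with TMZ, 2 of 24 genes and 0 falls, where 2.71% of all genes rose and 2.12% fell. RAD51C changed by 0.2 ± 0.04 (adjusted p = 0.0088) and FANCI by 0.29 ± 0.06 (adjusted p = 0.02). The other 2 RAD51C probes did not pass, at 0.09 (adjusted p = 0.267 over all probes) and 0.15 (adjusted p = 0.133). On the brightest probe of both genes the TMZ arrays were the higher within each siRNA, as the array values above show. The FANCI call was lost without siCtrl DMSO replicate 1 or siCtrl TMZ replicate 1 (adjusted p up to 0.0558). FANCG, at 0.2 ± 0.05, had an adjusted p of 0.0508. Of the S phase and mitosis markers 6 of 29 rose and 1 fell in this average. The part of the cell cycle in the rises was not tested.

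The test of whether the siRNA effect differed between DMSO and TMZ called 0 of the 24 genes and 0% of all genes. Among the 24, 2 had an unadjusted p under 0.05, RAD54B and CHEK2, with the lowest adjusted p at 0.588, and that share of 8.33% compares with 6.72% of all genes. The differences ran from -0.11 to 0.36. For CHEK2 the other probe gave a difference of -0.04 (adjusted p = 0.969 over all probes).

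Other genes of the same pathways were taken from lists beside the 32. Of 41 further recombination and Fanconi genes 9 rose and 13 fell under DMSO, with a median of -0.081. Under TMZ 7 rose and 16 fell, with a median of -0.082. Of all genes 20.7% rose and 20.1% fell under DMSO, and 18.6% rose and 20.2% fell under TMZ. RFWD3, a ubiquitin ligase of the Fanconi pathway, changed by -0.37 and -0.35, and RMI2, a subunit of the BLM complex, by -0.39 and -0.24. ERCC1, which with its partner nuclease cuts at crosslinks, changed by -0.33 and -0.31, and PSMC3IP, a strand exchange cofactor, by -0.57 and -0.59. REV1, a translesion polymerase, rose by 0.45 and 0.38. All 5 passed the threshold in both treatments. With TMZ 0 of the 41 passed in either siRNA, against 0.861% of all genes with control siRNA and 1.06% with BCL3 siRNA.

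Checkpoint genes outside the 32 moved in both directions, as all genes did. Of 22 measured, 5 rose and 5 fell under DMSO, where 20.7% of all genes rose and 20.1% fell. Under TMZ 4 rose and 6 fell, where 18.6% of all genes rose and 20.2% fell. CDC25A, the phosphatase that CHEK1 targets for destruction, changed by -1.21 ± 0.07 and -1.24 ± 0.07, and PKMYT1, an inhibitory kinase of CDK1, by -0.78 and -0.53. TIMELESS, a fork protection factor, changed by -0.32 and -0.31. WEE1, another inhibitory kinase of CDK1, rose by 0.71 and 0.59, MDC1, a mediator at breaks, by 0.31 and 0.4, and PPM1D, a phosphatase that switches the checkpoint off, by 0.73 and 0.79. PPM1D was also the 1 gene of this list called with TMZ in each siRNA, at 0.47 ± 0.08 (adjusted p = 0.0148) in control cells and 0.53 ± 0.08 (adjusted p = 0.00579) after the knockdown. It is on the list of p53 targets as well and is counted in both lists.

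End joining, the route that seals breaks without a template, had 8 measured genes. Of these 2 rose and 2 fell under DMSO, where 20.7% of all genes rose and 20.1% fell. Under TMZ 1 rose and 3 fell, where 18.6% of all genes rose and 20.2% fell. LIG4, its ligase, changed by -0.36 and -0.46, XRCC5, the larger Ku subunit, by -0.24 and -0.17, and DCLRE1C, the nuclease Artemis, by 0.33 and 0.36. Among the proliferation markers KIF20A, a mitotic kinesin, changed by -1.13 and -1.24, MKI67 by -1.08 and -1.14, BIRC5 by -1.01 and -1.09, and MCM6, of the replicative helicase, by -0.54 and -0.63. With treatments averaged 20 of the 29 markers fell and 3 rose, where 26.7% of all genes fell and 27.2% rose. PLK1 had a mean of 7.04 in siCtrl DMSO and 7.35 in siBCL3 DMSO, and CCNB1 had 7.93 in siCtrl TMZ and 8.15 in siBCL3 TMZ. With TMZ and control siRNA TOP2A and CDK1 rose, by 0.32 and 0.36, and with TMZ and BCL3 siRNA MCM6 fell (-0.29).

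The p53 targets responded to the drug in both siRNA backgrounds. Of 19 measured 10 rose with TMZ under control siRNA and 12 under BCL3 siRNA, with 0 falls. Of all genes 0.861% and 1.06% passed in either direction. The medians were 0.465 and 0.507, against 0.042 and 0.095 for the 24 repair and checkpoint genes. GDF15, a secreted stress cytokine, rose by 1.35 and 1.04, CDKN1A, the CDK inhibitor p21, by 1.02 and 0.95, and SESN1 by 0.96 and 0.67. With BCL3 siRNA 7 of the 19 rose and 1 fell under DMSO, where 20.7% of all genes rose and 20.1% fell. Under TMZ 7 rose and 2 fell, where 18.6% of all genes rose and 20.2% fell.

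**Figure D4:**
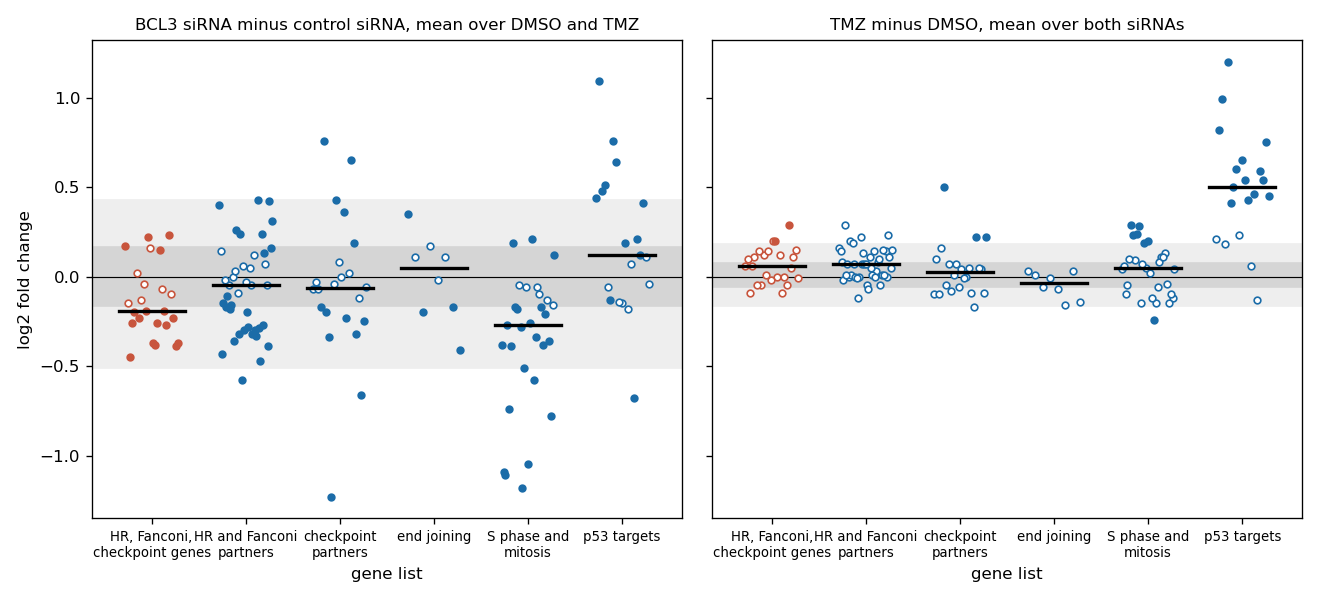
Log2 fold changes of the genes of each list, with both treatments averaged (left, BCL3 siRNA over control siRNA) and both siRNAs averaged (right, TMZ over DMSO). Points are genes, filled past an adjusted p of 0.05; black bars are list medians, and the grey bands hold the middle 50% and 90% of all genes. The repair and checkpoint genes have a median of -0.188 on the left and 0.059 on the right. The median of the p53 targets, 0.497, stands above the bands on the right, while single targets run from -0.13 to 1.2.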

How the data were processed

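Per the labels' protocols, total RNA was cleaned, amplified to biotin-labelled cRNA and hybridized to Illumina bead arrays. The deposited bead intensity values of 47320 probes had not been normalized or background-subtracted by the authors, judged from their values. The deposited detection p-value columns do not name their sample and were matched to the intensity column they track (Spearman rho of -0.979 or stronger). A second deposited table holds the authors' normalized intensity, used as an alternative. The software used is not given in the sources used here.

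Background-corrected, quantile-normalized log2 values came from neqc (limma 3.58.1, R 4.3.3) with an offset of 16. Probes below 0.01 in detection p-value on 3 or more arrays were kept, and the brightest named probe represented each of 10686 genes. One model of the 4 group means over 12 arrays (lmFit, eBayes, 8 residual degrees of freedom) gave 7 comparisons, with 2-sided p-values adjusted by Benjamini-Hochberg over all genes. Genes with an adjusted p under 0.05 are said to have risen or fallen. Other probes of a gene came from the same fit over 18105 probes. Log2 changes include the offset, which shrinks those of faint genes, and the number of arrays limits the precision.

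The 32 genes and the 5 other lists were chosen with earlier results of these data known. All 32 are accounted for. Array values are given for up to 6 called genes of lowest p per comparison, the 2 of highest mean level and any whose probes disagree; a few more called genes were added after their values were seen. Of the other lists up to 4 called genes of lowest p per comparison are named, in part. Arrays of the same replicate number were not paired by the data. Only the model fit was tested on simulated data, drawn from the normalized means and spreads of the genes. The background correction, scaling, filter and probe choice were not tested in this way. Alternatives were other background corrections, scalings, filters, probe rules and fits, the authors' values, and each array left out in turn.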

Additional observations from a re-analysis of the deposited data

How the results depend on the processing

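Of 48 calls of single genes over the comparisons, 22 held under each of 14 alternatives that could be computed and with each of 12 arrays left out, among them all siRNA calls of RAD51C, FANCG, FANCL and PALB2. The falls under DMSO numbered 9 to 14 with an array left out (9 without siCtrl DMSO replicate 2), and the rises 0 to 1. Falls under TMZ numbered 8 to 11 and rises 0 to 4: 0 without siCtrl TMZ replicate 3 or siBCL3 TMZ replicate 1, and 2 without siCtrl TMZ replicate 2 or siBCL3 TMZ replicate 2 or 3. With treatments averaged there were 12 to 14 falls and 3 to 4 rises, and 1 to 4 TMZ calls with siRNAs averaged (1 without siCtrl DMSO replicate 1 or siCtrl TMZ replicate 1, 4 without siBCL3 TMZ replicate 2).

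Median scaling was first run over all probes, of which most are not detected; after its values were seen, the median over probes detected on all 12 arrays was taken in its place and both are given. Over detected probes 65.2% of called genes were higher under DMSO, against 50.7% with quantile scaling, and 11 of the 24 genes fell. Over all probes 4.88% were higher, the median of all genes moved to -0.26, and 18 of the 24 fell, with a median of -0.547. Under TMZ the same scaling gave 35% higher (48% with quantile scaling), 6 falls and 0 rises; averaged over treatments it gave 0 rises, with ATM at -0.03 and FANCB at -0.04, and FANCE under DMSO at -0.34. It also ended the TMZ calls of ATM, BARD1, BLM, FANCI, RAD54L and XRCC3. It gave 1 TMZ call with BCL3 siRNA and 0 with siRNAs averaged. The cause was not tested.

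The authors' values gave 1 rise under DMSO, 2 under TMZ, and 1 TMZ call in each siRNA; FANCC was then at 0, both groups lying at the floor of 16. Averaged probes gave 1 rise under DMSO, and no detection filter 2 rises under TMZ. No background correction gave 1 TMZ call with control siRNA and 2 with BCL3 siRNA. Cyclic loess gave 1 with BCL3 siRNA, and the normexp alternative and trend with robust moderation 2 each.

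Same-numbered arrays correlated at -0.155 to 0.186 in 18 pairs, and 4 of 12 arrays correlated best with their own number. With the replicate number as a block 13 genes fell under DMSO, 11 fell and 4 rose under TMZ, and 13 fell and 5 rose with treatments averaged. Faint genes (ATR, BRIP1, FANCC) are limited by their signal over background.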
